A study of Mus musculus with 6 samples.

Results

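The transcription factors that define the acinar cell of the exocrine pancreas were examined in the pancreas of mice that lack OCaR1. The 9 factors were chosen by name, with earlier results of these data known: Ptf1a, Rbpjl, Rbpj, Nr5a2, Gata4, Gata6, Bhlha15, Hnf4a and Foxa2. Of these, 8 had a row among the 12016 genes of the deposited table, and all 8 were among its 11478 tested genes; Rbpj was not analysed here. RNA was taken from the whole pancreas of 3 male OCaR1-/- mice and 3 male wild-type C57Bl6/N mice, all 3 weeks old and untreated, and was sequenced after poly(A) selection. The strain field of the labels reads C56Bl6/N for both genotypes, and how the OCaR1 allele was made is not given in the sources used here. For each gene the authors gave 1 value per genotype in FPKM (fragments per kilobase of transcript, scaled to the size of the library), so no SD, standard error or value of a single mouse can stand beside a level. A gene is said to have risen or fallen only where the authors' Cuffdiff comparison gave a q-value, adjusted over all genes they tested, under 0.05.

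Acinar cells make and store digestive enzymes, and a small set of transcription factors keeps them doing so. At its centre is PTF1, a complex of 3 proteins: Ptf1a, a cell-type-specific basic helix-loop-helix factor, a common E protein partner, and Rbpj or its pancreas-specific relative Rbpjl. During pancreas development in mice Rbpj is replaced by Rbpjl as acinar cells mature, and the complex that holds Rbpjl drives the enzyme genes. Nr5a2, a nuclear receptor, works together with PTF1 on those genes, while Bhlha15 (also known as Mist1) sets up the secretory apparatus. Gata4, Gata6, Hnf4a and Foxa2 act more broadly in organs of the endoderm.

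The promoter sequences of Ptf1a and Nr5a2 are shown because both genes fell, and that of Rbpjl because its product sits in the same complex as Ptf1a and its transcript did not pass the test. They are RefSeq sequences of build GRCm38.p6, read 5′ to 3′ on the strand of the gene and cover bases -250 to -1 before a transcription start, or -250 to -54 for Rbpjl, where the bases in exons of protein-coding genes were left out. Capitals mark the E-box form CACCTG, the TC-box TTCCCA that Rbpj and Rbpjl bind, the GATA motif AGATAA and the Nr5a2 motif CAAGGTCA, on either strand.
Ptf1a, chr2:19445413-19445662, plus strand: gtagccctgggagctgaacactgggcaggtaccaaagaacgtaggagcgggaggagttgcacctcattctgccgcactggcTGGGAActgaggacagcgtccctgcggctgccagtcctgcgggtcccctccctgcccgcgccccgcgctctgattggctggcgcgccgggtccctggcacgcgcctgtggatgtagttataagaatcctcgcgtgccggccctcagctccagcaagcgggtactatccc
Rbpjl, chr2:164402944-164403140, plus strand: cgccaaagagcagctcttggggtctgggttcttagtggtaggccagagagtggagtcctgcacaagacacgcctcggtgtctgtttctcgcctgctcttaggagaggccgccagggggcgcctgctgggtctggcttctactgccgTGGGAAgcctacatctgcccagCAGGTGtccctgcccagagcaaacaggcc
Nr5a2, upstream start, chr1:136960449-136960698, minus strand: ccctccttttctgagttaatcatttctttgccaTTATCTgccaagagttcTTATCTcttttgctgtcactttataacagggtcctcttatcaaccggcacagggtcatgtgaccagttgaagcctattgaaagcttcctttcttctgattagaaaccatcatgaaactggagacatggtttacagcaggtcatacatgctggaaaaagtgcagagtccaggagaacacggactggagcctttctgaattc
Nr5a2, downstream start, chr1:136953631-136953880, minus strand: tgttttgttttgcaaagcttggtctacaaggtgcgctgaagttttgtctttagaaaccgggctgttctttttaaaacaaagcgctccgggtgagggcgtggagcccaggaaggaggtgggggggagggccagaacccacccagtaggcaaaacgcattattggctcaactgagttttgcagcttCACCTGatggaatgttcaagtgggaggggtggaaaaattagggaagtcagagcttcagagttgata
In the Rbpjl promoter the TC-box (bases -104 to -99 from the start, printed as TGGGAA) and the E-box (bases -82 to -77, printed as CAGGTG) both read as TTCCCA and CACCTG on the opposite strand, with 16 bases between them. Such a pair on 1 strand with at most 22 bases between its parts was present in 0.420% of 32841 promoter windows of 250 bases, while a TC-box alone was present in 21.6% and CACCTG alone in 17.2%. This spacing limit was chosen after the sequences had been read. The Ptf1a window held 1 TC-box (bases -169 to -164), and the downstream Nr5a2 start had 1 CACCTG (bases -66 to -61), which is also a form of the general E-box CANNTG present in 66.2% of windows. The window of the upstream Nr5a2 start held 2 copies of AGATAA on the other strand. At least 1 AGATAA on either strand was found in 9.99% of windows. The motif CAAGGTCA, found in 1.33% of windows, was not among the matches in these 4. A further AGATAA lay in the Rbpjl window between bases -31 and -26, outside the stretch shown.

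All 8 measured factors were expressed in both genotypes, and their levels covered a wide range. Rbpjl was the most abundant, at 159 FPKM in the OCaR1-/- group and 153 FPKM in the wild-type group. It ranked 164th in the OCaR1-/- group and 171st in the wild-type group among all genes of the table. Bhlha15 followed at 64.3 FPKM in OCaR1-/- and 68.6 FPKM in wild type, and Ptf1a at 27.2 FPKM in OCaR1-/- and 40.9 FPKM in wild type. The middle of the range was held by Gata4, Hnf4a, Nr5a2 and Foxa2, with between 8.67 and 13.0 FPKM in OCaR1-/- and between 8.36 and 18.9 FPKM in wild type. Gata6 was the lowest, at 3.64 FPKM in OCaR1-/- and 4.17 FPKM in wild type. The order of the 8 levels was the same in both genotypes, as the plot of member levels shows, and whether neighbours in that order differ beyond the spread between mice could not be tested.

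**Figure D1:**
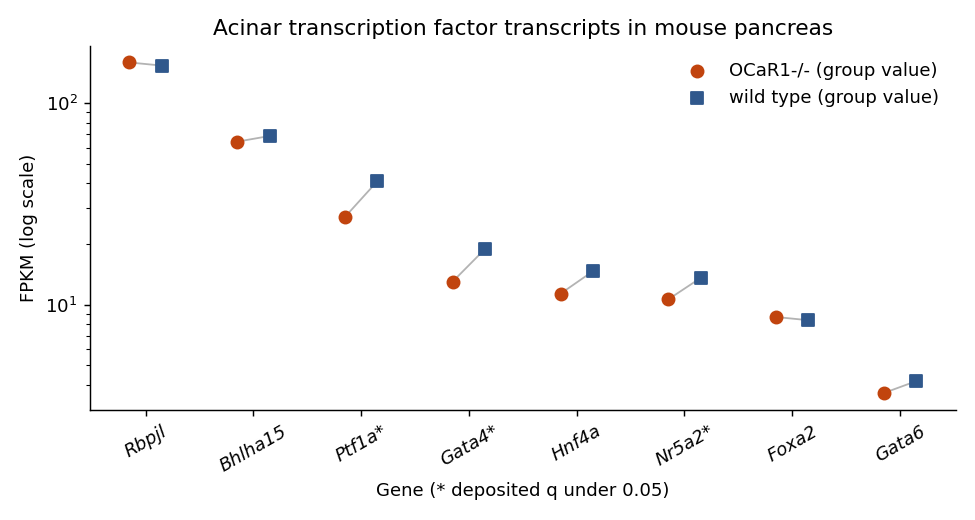
Level of each measured acinar transcription factor in FPKM (log scale), with the OCaR1-/- group value (circle) left of the wild-type group value (square) and 1 gene per position on the horizontal axis, ordered by wild-type level. Rbpjl, at 159 FPKM in OCaR1-/- and 153 FPKM in wild type, stands highest, Gata6, at 3.64 FPKM in OCaR1-/- and 4.17 FPKM in wild type, lowest, and the genes marked with an asterisk, Ptf1a, Gata4 and Nr5a2, had a q under 0.05 in the authors' deposited table.

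Of the 8 factors, 3 fell in the OCaR1-/- pancreas and 0 rose, in the authors' deposited table. The share of all tested genes called lower there was 3.35%, the share called higher was 4.20%, and the share called in either direction was 7.54%. The median log2 ratio of OCaR1-/- over wild type was -0.27 for the 8 factors and -0.03 for all tested genes. The 3 factors that fell were Ptf1a, Gata4 and Nr5a2. A further 3 had a ratio below 0 and 2 a ratio above 0 without passing the test.

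Ptf1a, the cell-type-specific basic helix-loop-helix subunit of PTF1, fell to 66.5% of its wild-type level (27.2 FPKM in OCaR1-/-, 40.9 FPKM in wild type). Its log2 ratio was -0.59, a 1.50-fold difference, with q = 0.00152 from the authors' deposited table. This q goes with the smallest Cuffdiff p, 5e-05, which 394 genes share, so it does not rank Ptf1a among them. The same holds for each q of 0.00152 given below. Of all tested genes with a ratio, 3.37% had one as low or lower, and of the 1561 genes whose level was within 2-fold of that of Ptf1a, 3.20% did. Ptf1a (ENSMUSG00000026735) lies on the plus strand of chromosome 2, in GRCm38, where GENCODE M21 places it at 19445663 to 19447501. The interval that the authors' table gives for it, 19441508 to 19447501, also takes in the antisense gene Ptf1aos, whose exons cover 40.4% of the exonic bases of Ptf1a. The use of strand in counting is not given in the sources used here, so reads from the 2 genes cannot be told apart, and Ptf1aos was not analysed here.

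Rbpjl, the partner in the mature PTF1 complex whose promoter carries the paired motif shown above, did not pass the test. It had 159 FPKM in OCaR1-/- and 153 FPKM in wild type, a log2 ratio of 0.05 with q = 0.935 from the authors' deposited table. The level of Rbpjl was therefore 5.84 times that of Ptf1a in the OCaR1-/- group and 3.75 times in the wild-type group, a comparison of FPKM levels for which no test could be made. Rbpjl (ENSMUSG00000017007, plus strand of chromosome 2, 164403141 to 164415448 in GENCODE M21) shares its interval in the authors' table with Matn4, a matrix protein gene on the other strand. Exons of Matn4 cover 2.60% of the exonic bases of Rbpjl, and Matn4 stood at 7.02 FPKM in OCaR1-/- and 8.53 FPKM in wild type.

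Nr5a2, the nuclear receptor that acts with PTF1 on enzyme genes, fell to 78.3% of its wild-type level (10.6 FPKM in OCaR1-/-, 13.6 FPKM in wild type). The log2 ratio was -0.35, a 1.28-fold difference, with q = 0.0416 from the authors' deposited table, the value nearest to the threshold among the 3 factors that fell. A ratio as low or lower was found in 10.5% of all tested genes, and in 9.60% of the 3509 genes whose level was within 2-fold of that of Nr5a2. Nr5a2 (ENSMUSG00000026398, minus strand of chromosome 1, 136842571 to 136960448) lies on the chromosome of the targeted gene, at a distance of 44.0 Mb. No other GENCODE M21 gene lies within its interval.

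Bhlha15, which scales up the secretory machinery, had 64.3 FPKM in OCaR1-/- and 68.6 FPKM in wild type. Its log2 ratio of -0.09 had q = 0.753 from the authors' deposited table. The gene (ENSMUSG00000052271) lies alone in its interval on the plus strand of chromosome 5, 144190286 to 144194441.

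The 2 GATA factors, paralogs that share their DNA motif, differed in whether they passed the test. Gata4 fell to 68.9% of its wild-type level (13.0 FPKM in OCaR1-/-, 18.9 FPKM in wild type), a log2 ratio of -0.54 and a 1.45-fold difference, with q = 0.0339 from the authors' deposited table. A ratio as low or lower was found in 4.27% of all tested genes. Gata6 had 3.64 FPKM in OCaR1-/- and 4.17 FPKM in wild type, a log2 ratio of -0.20 with q = 0.481 from the authors' deposited table. Whether the 2 ratios differ from each other was not tested. The level of Gata4 was 3.58 times that of Gata6 in the OCaR1-/- group and 4.53 times in the wild-type group. Gata4 (ENSMUSG00000021944) occupies 63198922 to 63271692 on the minus strand of chromosome 14, with no other annotated gene in its interval. Gata6 (ENSMUSG00000005836, chromosome 18) shares its interval with the noncoding gene 1010001N08Rik on the other strand, which covers 1.43% of its exonic bases.

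Hnf4a and Foxa2, factors of the endoderm that are also active in liver, gut and islets, did not pass the test. Hnf4a had 11.3 FPKM in OCaR1-/- and 14.6 FPKM in wild type. At -0.37 its log2 ratio was slightly further below 0 than that of Nr5a2, with q = 0.505 from the authors' deposited table. Foxa2 had 8.67 FPKM in OCaR1-/- and 8.36 FPKM in wild type, a log2 ratio of 0.05 with q = 0.944 from the authors' deposited table. Hnf4a (ENSMUSG00000017950) and Foxa2 (ENSMUSG00000037025) both lie on chromosome 2, as do Ptf1a and Rbpjl. The interval of Hnf4a in the table, 163492318 to 163572910, takes in 3 other annotated genes, with 0 shared exonic bases, and that of Foxa2, 148042877 to 148046969, holds no other.

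**Figure D2:**
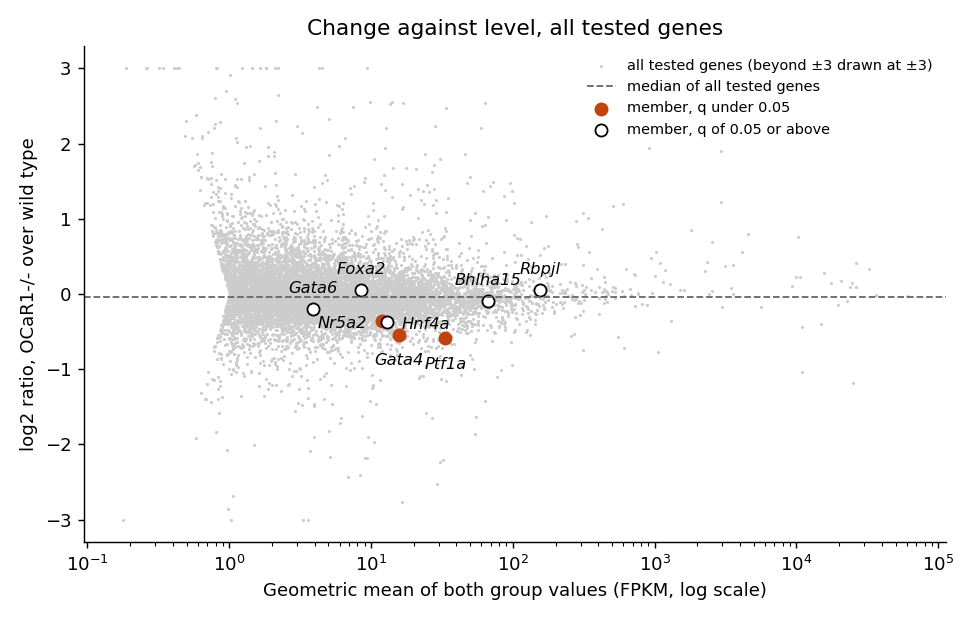
Log2 ratio of OCaR1-/- over wild type (vertical axis) against the geometric mean of both group values in FPKM (horizontal axis, log scale) for all tested genes (grey) and the 8 acinar factors (large circles, filled where q was under 0.05). The filled points, Ptf1a at -0.59, Gata4 at -0.54 and Nr5a2 at -0.35, lie below the dashed median of all tested genes at -0.03, and Rbpjl, the most abundant factor, lies at 0.05.

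Because a few digestive enzyme genes made up most of the FPKM total, the ratios were also computed on other scales. The 27 measured digestive enzyme genes held 60.4% of all FPKM in the OCaR1-/- group and 64.4% in the wild-type group. This list also holds genes of other acinar products, such as Reg1 and Spink3. A further 9 of the 36 listed genes, among them Amy2b, Ctrb1 and Ctrc, were not analysed here and enter neither share. Scaling each group to its sum without these genes moved the median of all tested genes to -0.23, and with it Ptf1a to -0.79, Gata4 to -0.74 and Nr5a2 to -0.55. On that scale Rbpjl and Foxa2 changed sign, both to -0.15, while the other scales drawn in the plot of member ratios under 4 scalings left them above 0. Relative to the median of all tested genes the ratios were -0.56 for Ptf1a, -0.50 for Gata4 and -0.32 for Nr5a2.

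**Figure D3:**
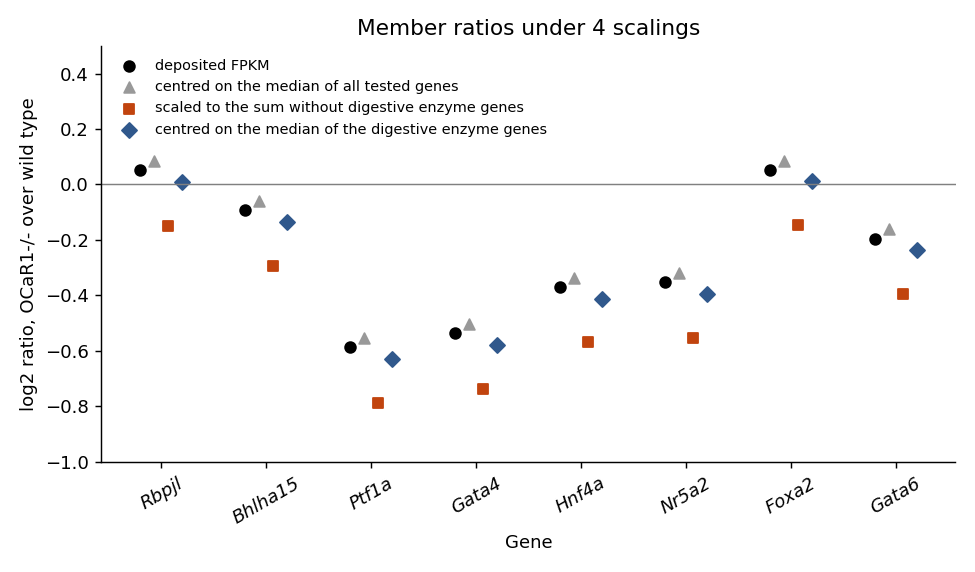
Log2 ratio of OCaR1-/- over wild type for each of the 8 factors (horizontal axis, ordered by wild-type level) from the deposited FPKM values (circles), centred on the median of all tested genes (triangles), scaled to the group sum without digestive enzyme genes (squares) and centred on the median of the digestive enzyme genes (diamonds). Ptf1a, Gata4, Hnf4a, Nr5a2, Gata6 and Bhlha15 lie below 0 on each of the 4 scales, and Rbpjl and Foxa2 lie below 0, at -0.15, only on the scale without digestive enzyme genes.

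The partners of Ptf1a were examined next. E proteins are the common dimer partners of tissue-specific basic helix-loop-helix factors, and Id proteins take E proteins away from them. Of 6 tested genes of both kinds, the authors' deposited table called 1 lower and 0 higher, and their median log2 ratio was -0.02. Of all tested genes 3.35% were called lower, and a single call among 6 says little about the list. The called gene was the inhibitor gene Id2, with 9.90 FPKM in OCaR1-/- and 14.1 FPKM in wild type (log2 ratio -0.51, q = 0.00152 from the authors' deposited table). The inhibitor gene Id3 had 6.93 FPKM in OCaR1-/- and 5.17 FPKM in wild type, short of the threshold (q = 0.120 from the authors' deposited table). Among the E protein genes, Tcf12 had 7.11 FPKM in OCaR1-/- and 9.31 FPKM in wild type (q = 0.217 from the authors' deposited table), Tcf3 had 4.27 FPKM in OCaR1-/- and 4.59 FPKM in wild type, and Tcf4 had 8.15 FPKM in OCaR1-/- and 7.79 FPKM in wild type.

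Rbpj is also the DNA-binding protein of Notch signalling, a pathway that holds pancreatic progenitors back from acinar differentiation. Of 18 tested Notch pathway genes, the authors' deposited table called 1 lower and 0 higher, with a median of -0.07. A further 6 of the 24 listed genes were not analysed here. A single call among 18 is near the 3.35% of all tested genes called lower. The called gene was Lfng, which encodes a glycosyltransferase that modifies Notch receptors (9.18 FPKM in OCaR1-/-, 12.2 FPKM in wild type, log2 ratio -0.41, q = 0.0107 from the authors' deposited table). The receptor gene Notch1 had 5.84 FPKM in OCaR1-/- and 5.85 FPKM in wild type. The target gene Hes1 had 7.05 FPKM in OCaR1-/- and 7.72 FPKM in wild type (q = 0.895 from the authors' deposited table).

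Among 6 tested paralogs and cofactors of the acinar factors, 2 fell and 0 rose in the authors' deposited table, beside 3.35% of all tested genes called lower. Their median was -0.21, and a further 10 of the 16 listed genes were not analysed here. Foxa3, a paralog of Foxa2, had 10.9 FPKM in OCaR1-/- and 15.2 FPKM in wild type (log2 ratio -0.48, q = 0.00152 from the authors' deposited table). Ncoa1, a coactivator of nuclear receptors, had 2.25 FPKM in OCaR1-/- and 2.92 FPKM in wild type (log2 ratio -0.38, q = 0.0131 from the authors' deposited table). Nr0b2, an orphan receptor that represses Nr5a2 activity in liver, had 7.80 FPKM in OCaR1-/- and 6.17 FPKM in wild type, short of the threshold (q = 0.126 from the authors' deposited table).

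Of 13 other regulators of pancreas development and secretion, the authors' deposited table called 1 lower and 1 higher, beside 3.35% and 4.20% of all tested genes, with a median of -0.17. Creb3l1, a membrane-bound factor of the secretory pathway, fell (13.5 FPKM in OCaR1-/-, 19.1 FPKM in wild type, log2 ratio -0.51, q = 0.00152 from the authors' deposited table). Sox9, a factor of ducts and progenitors, rose (3.86 FPKM in OCaR1-/-, 2.61 FPKM in wild type, log2 ratio 0.56, q = 0.00152 from the authors' deposited table). In this list 11 of 13 ratios were below 0, as were 55.2% of the ratios of all tested genes. Xbp1, the unfolded protein response factor that acinar cells need, had 246 FPKM in OCaR1-/- and 304 FPKM in wild type, short of the threshold (q = 0.105 from the authors' deposited table).

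Digestive enzyme genes, a class on which PTF1 and Nr5a2 act, moved in both directions. Of 27 tested genes of that list, 3 rose and 3 fell by the q-values in the authors' deposited table. Of all tested genes 4.20% were called higher and 3.35% lower, and the list median was 0.04. The list was made up of acinar cell markers, and whether each gene is a target of these factors was not tested. The trypsinogen genes Prss1 and Prss3 (log2 ratios 1.07 and 1.08) and the trypsin inhibitor gene Spink3 (0.39) rose. Prss1 had 78.8 FPKM in OCaR1-/- and 37.5 FPKM in wild type, and Prss3 458 FPKM in OCaR1-/- and 217 FPKM in wild type. The trypsinogen genes Prss2, Try4, Try5 and Try10 were more abundant and were not called. Prss2 had 59529 FPKM in OCaR1-/- and 60473 FPKM in wild type. Try4 had 12996 FPKM in OCaR1-/- and 17050 FPKM in wild type, and Try5 11495 FPKM in OCaR1-/- and 9802 FPKM in wild type. The elastase gene Cela1 (-1.19), the lipase gene Pnlip (-1.04) and the granule protein gene Sycn (-0.44) fell. Trypsinogen genes are close paralogs, so the authors' counting could divide reads between them. Of 9 tested genes linked to Bhlha15, 1 was called lower and 0 higher in the authors' deposited table, beside 3.35% of all tested genes called lower, with a median of -0.14. The single call was Gjb2, a gap junction gene, with 16.0 FPKM in OCaR1-/- and 34.0 FPKM in wild type (log2 ratio -1.09, q = 0.00152 from the authors' deposited table). Rab3d, a GTPase of the zymogen granule, had 69.1 FPKM in OCaR1-/- and 93.5 FPKM in wild type (q = 0.246 from the authors' deposited table).

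Beside the lower Ptf1a, Gata4 and Nr5a2 levels, most islet, macrophage, fat cell and stromal markers were called higher in the OCaR1-/- group, against 4.20% of all tested genes, and most smooth muscle markers lower, against 3.35%. By the q-values in the authors' deposited table, 13 of 18 islet markers were higher and 0 lower, and their summed level was 4161 FPKM in OCaR1-/- and 2599 FPKM in wild type. Of the macrophage markers 12 of 14 were called higher (summed level 138 FPKM in OCaR1-/- and 77.8 FPKM in wild type), and of the fat cell markers 7 of 9 (215 FPKM in OCaR1-/- and 103 FPKM in wild type). Stromal markers had 9 of 13 called higher (714 FPKM in OCaR1-/- and 536 FPKM in wild type), and endothelial markers 5 of 10 (83.5 FPKM in OCaR1-/- and 63.1 FPKM in wild type). Duct markers had 1 of 10 called higher (390 FPKM in OCaR1-/- and 385 FPKM in wild type). That single gene was Sox9, already counted above among the other regulators. Smooth muscle markers had 5 of 7 called lower (31.9 FPKM in OCaR1-/- and 67.9 FPKM in wild type), and intestine and liver markers 2 of 5, with a summed level of 38.5 FPKM in OCaR1-/- and 35.8 FPKM in wild type. Most of that last sum came from Ttr, singled out after its values were seen (34.7 FPKM in OCaR1-/- and 29.6 FPKM in wild type), which islets also express, and the other 4 markers summed to 3.78 FPKM in OCaR1-/- and 6.21 FPKM in wild type. In each of these lists the number of measured markers at 0 in either genotype was 0. Every gene analysed had over 1.00 FPKM in at least 1 genotype, so this count says little about low markers. Listed markers not analysed here numbered 8 of 13 for intestine and liver, 5 of 23 for islets and 2 of 16 for macrophages. They numbered 2 of 11 for fat cells, 2 of 12 for ducts and 1 of 8 for smooth muscle. In RNA of a whole organ, fewer cells of a type and less RNA per cell cannot be told apart, and the part of the other cell types in the ratios of the acinar factors was not tested.

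**Figure D4:**
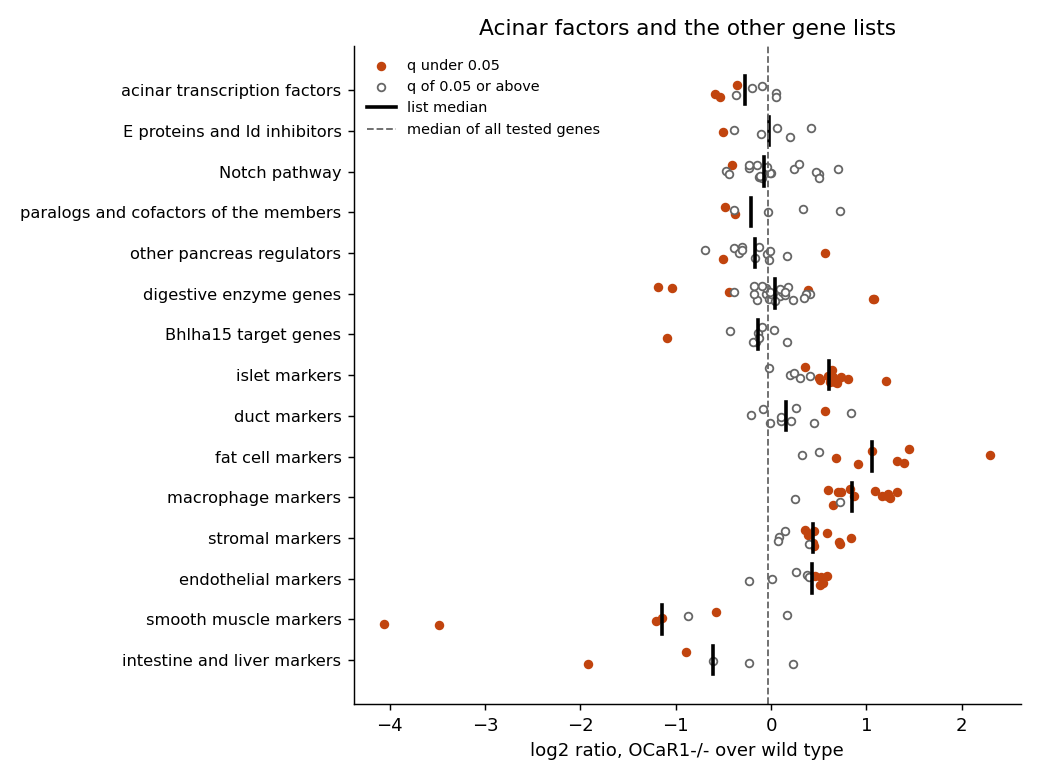
Log2 ratio of OCaR1-/- over wild type (horizontal axis) of each measured gene, with 1 row per gene list, filled points where q was under 0.05, a black bar at the list median and a dashed line at the median of all tested genes. The acinar transcription factors have their median at -0.27, the digestive enzyme genes at 0.04, and the islet, macrophage and fat cell markers at 0.60, 0.85 and 1.06.

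Depth is unknown, since the table holds FPKM values and no counts. The targeted gene Tmem63a, which encodes OCaR1 (a link from background knowledge), was at 26.8% of its wild-type level, with 4.91 FPKM in OCaR1-/- and 18.3 FPKM in wild type.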

How the data were processed

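RNA of the pancreas of 3 OCaR1-/- and 3 wild-type mice was sequenced as single reads. The submitters' processing notes name STAR (2.5.1b), Cufflinks (2.2.1), Cuffdiff and build GRCm38; annotation release and settings: not given in the sources used here. For each genotype the deposited Cuffdiff gene table gives 1 FPKM value, and for each gene a p-value and a q-value by the authors. It holds 0 columns of single samples. Depth is unknown, so no interval or detection floor is given, and every gene has over 1.00 FPKM in at least 1 genotype.

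Log2 ratios of OCaR1-/- over wild type were computed from the FPKM values with pandas 2.3.3, without a pseudocount. Values under 0.01 FPKM counted as 0, which left 37 of 11478 tested genes without a ratio, and the 538 untested genes entered no count or median. A test on values per library could not be made, so the authors' q under 0.05 was used. The smallest p, 5e-05, is shared by 394 genes. The members and the 14 other gene lists were chosen with earlier results of these data known. All members were named, and of the other lists the called genes of smallest p; marker lists are given by counts and sums, and further genes of known role were added after their values were seen. Starts in the table's intervals count from 0 and were shifted by 1. Exons came from GENCODE M21. RefSeq promoters matched 7 of the 8 members looked for (not Gata4), and Gata6 was left out, as was its chromosome from the background. The adjustment was tested on simulated p-values. Alternatives were pseudocounts of 0.5 and 1, 3 scalings, an expression minimum of 5 FPKM, and other q thresholds.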

Additional observations from a re-analysis of the deposited data

How the results depend on the processing

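The 3 calls among the acinar factors, each lower in OCaR1-/-, also numbered 3 when the deposited p-values were adjusted again over all tested genes, at q under 0.1, and among genes of at least 5 FPKM in either group. At q under 0.01 the count was 1, since Gata4 and Nr5a2 had q-values of 0.0339 and 0.0416 in the authors' deposited table. The median log2 ratio of the 8 factors lay between -0.35 and -0.22 with pseudocounts of 0.5 and 1, centring on all tested genes or on the digestive enzyme genes, the 5 FPKM minimum, and, chosen after seeing the data, without members whose interval holds another gene. Scaled to the sum without digestive enzyme genes it was -0.47, because that scaling subtracts 0.20 from every ratio. Calls in the 14 other lists, chosen with earlier results known, numbered 66 at the authors' q under 0.05. Of these 50 were higher and 16 lower, beside 4.20% of all tested genes called higher and 3.35% called lower. Under the other thresholds the calls numbered between 44 and 70. The share of all tested genes called was computed only for the authors' q under 0.05. Whether the counts at other settings follow that share was therefore not tested. With the 5 FPKM minimum the macrophage calls numbered 4 in place of 12, the smooth muscle calls 3 in place of 5, the intestine and liver calls 0 in place of 2 and the duct calls 0 in place of 1, since that minimum removes low genes; paralogs and cofactors, and other regulators, each held 1 in place of 2. At q under 0.01 the Notch list held 0 calls in place of 1, paralogs and cofactors 1 in place of 2, endothelial markers 3 in place of 5, intestine and liver markers 1 in place of 2, and digestive enzyme genes 3, all higher, in place of 6. At q under 0.1 duct markers held 2. No paired analysis was possible because the table holds 1 value per genotype and no value per mouse, and for the same reason no mouse could be left out and no count test was run.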

Other observations

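Families of transcription factors that the authors' table names in its gene descriptions were counted after the values had been seen. Of 15 tested genes described as members of a nuclear receptor subfamily, 3 were called lower and 0 higher in the authors' deposited table, beside 3.35% of all tested genes called lower, and their median log2 ratio was -0.32. These were Nr5a2, the clock-linked receptor gene Nr1d2 (10.5 FPKM in OCaR1-/- and 14.1 FPKM in wild type) and the immediate early gene Nr4a1 (1.05 FPKM in OCaR1-/- and 1.67 FPKM in wild type). Nr5a2 is an acinar factor described above, so its call is not a further one. Of 15 tested forkhead box genes 1, Foxa3, was called lower and 0 higher, beside 3.35% of all tested genes called lower. A single call among 15 says little about the family, whose median was -0.08. Foxa3 was already counted above among the paralogs and cofactors. Of 8 tested SRY-box genes 1 was called higher, Sox9, and 1 lower, Sox12 (1.74 FPKM in OCaR1-/- and 2.36 FPKM in wild type). Sox9 was already counted above among the other regulators and the duct markers. Of all tested genes 4.20% were called higher and 3.35% lower, and the SRY-box median was 0.21. The GATA family held 2 tested genes, Gata4 and Gata6, with a median of -0.37. Both are acinar factors described above, where Gata4 was called lower, so this family adds no further gene. Of 12 tested Kruppel-like factor genes 3 rose and 0 fell by the q-values in the authors' deposited table, beside 4.20% of all tested genes called higher. These were Klf6 (4.34 FPKM in OCaR1-/- and 2.71 FPKM in wild type), Klf2 (3.64 FPKM in OCaR1-/- and 2.50 FPKM in wild type) and Klf13 (4.46 FPKM in OCaR1-/- and 3.07 FPKM in wild type). Their family median was -0.02.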
